A study of Homo sapiens with 4 samples.

Results

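The broad domains described here were the widest H3K27Ac peaks of LNCaP cells without androgen. They were selected on their vehicle width alone, as the peaks whose end lay at least 8000 bp beyond their start, and they numbered 887 of 57623 vehicle peaks (1.54%). Together they spanned 12.9 Mb of the 129 Mb under all vehicle peaks (10.1%). LNCaP is a prostate cancer cell line of luminal character that responds to androgens. The study asked which regulatory regions of this line lie at prostate cancer risk loci, and collected 1 ChIP-seq library each of H3K27Ac in charcoal-stripped serum with ethanol vehicle, of H3K27Ac in the same serum with 10 nM dihydrotestosterone (DHT) for 4 h, and of TCF7L2 in serum that had not been stripped. Charcoal removes steroid hormones from serum. Both H3K27Ac libraries came from cells at passage 20 and the TCF7L2 library from cells at passage 15, so the TCF7L2 peaks differed from the H3K27Ac peaks in serum and passage. With 1 library per condition nothing shows how far cultures differ, and no difference between conditions was tested. An input library was not analysed here.

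H3K27Ac is an acetyl mark on the tail of histone H3 that p300 and CBP write and that is found at active promoters and enhancers. Most acetylated regions span a few nucleosomes beside a start site or an enhancer. In some places the mark runs on over many kilobases without a break, often over clusters of enhancers near genes that are highly used or that set the identity of a cell type. In luminal prostate cells such genes include those of the factors FOXA1 and HOXB13, which share many enhancers. TCF7L2 is an HMG-box factor that binds the core CTTTG followed by A or T, recruits beta-catenin in Wnt signalling, and is known to bind enhancers in many epithelial cells.

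The tallest TCF7L2 peaks inside broad domains lay at YAP1, MYC, PPP3CA and VMP1. To set TCF7L2 sequence beside wide acetylation, the central 241 bp of the tallest peak are shown for 4 of the 5 domains with the tallest TCF7L2 peaks, that of MYC excepted. In the widest PPP3CA domain, 2 peaks were equally tall and the first is shown. All windows are on the plus strand of GRCh37, and capitals mark the core CTTTG with A or T at each of the next 2 bases (in the forms CTTTGAT, its variant CTTTGAA, and likewise CTTTGTA or else CTTTGTT), read on either strand.
YAP1, chr11:101982554-101982794: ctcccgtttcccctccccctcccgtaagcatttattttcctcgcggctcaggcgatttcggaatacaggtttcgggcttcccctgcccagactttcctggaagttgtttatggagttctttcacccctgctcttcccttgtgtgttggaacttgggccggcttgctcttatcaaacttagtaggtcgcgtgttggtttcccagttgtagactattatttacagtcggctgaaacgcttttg
PPP3CA, widest domain, chr4:102036029-102036269: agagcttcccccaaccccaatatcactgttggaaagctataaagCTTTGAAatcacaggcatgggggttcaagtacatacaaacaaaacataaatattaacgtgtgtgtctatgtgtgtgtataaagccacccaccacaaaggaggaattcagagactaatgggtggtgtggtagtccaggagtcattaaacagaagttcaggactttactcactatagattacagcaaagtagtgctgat
PPP3CA, neighbouring domain, chr4:101960624-101960864: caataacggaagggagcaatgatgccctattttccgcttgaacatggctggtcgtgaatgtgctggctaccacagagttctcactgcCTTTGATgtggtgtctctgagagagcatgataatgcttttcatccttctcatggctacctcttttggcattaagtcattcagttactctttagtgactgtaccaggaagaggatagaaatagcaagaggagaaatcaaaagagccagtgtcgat
VMP1, chr17:57914954-57915194: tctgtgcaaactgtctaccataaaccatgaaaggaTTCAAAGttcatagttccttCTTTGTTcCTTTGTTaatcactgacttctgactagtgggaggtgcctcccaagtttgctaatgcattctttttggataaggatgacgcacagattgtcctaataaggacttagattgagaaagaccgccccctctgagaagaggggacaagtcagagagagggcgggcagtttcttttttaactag
The YAP1 window, at the tallest TCF7L2 peak of any broad domain (225 tags), held none of the 4 heptamers, which says only that these letters were not in this window. Each PPP3CA window, under peaks of 218 and 199 tags, held 1 of them, and the VMP1 window, under a peak of 202 tags, held 3. The heptamers are common, and 36.2% of all 500 bp pieces from broad domains held at least 1. No rate was computed for windows of 241 bp away from TCF7L2 peaks, so these counts do not show that the heptamers are used.

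The full androgen response element searched, AGAACA followed after 3 bases by TGTTCT, was found in 2 of the 887 domains. Both sites are shown with the element in capitals, again on the plus strand of GRCh37.
NEDD4L, chr18:55953122-55953196: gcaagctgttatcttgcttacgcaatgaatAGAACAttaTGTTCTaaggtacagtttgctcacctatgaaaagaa
OSER1, chr20:42831733-42831807: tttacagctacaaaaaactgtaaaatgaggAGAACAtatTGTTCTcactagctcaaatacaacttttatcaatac
The NEDD4L domain was 110 tags tall with vehicle and met a DHT peak of 178 tags, whereas the OSER1 domain was 123 tags tall with vehicle and met a DHT peak of 118 tags. NEDD4L encodes a ubiquitin ligase that acts on ion channels. Over pieces of 500 bp, the exact element was in 0.00786% of the pieces from broad domains and in 0.0148% of those from all vehicle peaks, so it was rare in both.

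Broad domains ranged from 8009 to 194129 bp in width. The median was 10.6 kb, with quartiles of 9.03 and 14.4 kb, 173 domains reached 16 kb, 44 reached 32 kb, and 15 reached 64 kb. The limit of 8000 bp cut through a continuous range of widths. The 3 domains just inside it were 8009 bp wide and lay in KIAA1671 (83 tags), over the shared promoter region of ELF1 and WBP4 (70 tags), and on chromosome 18 outside any gene (111 tags). The 3 peaks just outside it were 7979 bp wide and lay on chromosome 11 outside any gene (166 tags), in GPR158 (40 tags), and over the MYH9 promoter (64 tags). Peak height, the number of tags at the top of the pileup, ranged from 17 to 212 among the domains with a median of 109, against 75 for the 4610 vehicle peaks of 4 to 8 kb and 22 for all vehicle peaks. Height was not used in the selection, but width and height came from the same pileup, and the difference is a description.

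Some domains lay in sequence that could not be placed uniquely in the genome. Domain sequence was cut into pieces of 1000 bp and aligned back to the genome. Every piece of 826 domains aligned with a mapping quality of 30 or more, whereas fewer than 50% of the pieces did so in 36 domains. The aligned position was not compared with the origin, and shorter pieces were not tried. Among these 36 were 7 domains of 16.3 to 22.1 kb around the duplicated SMN2 and SERF1A genes on chromosome 5, which had vehicle heights of 138 to 156 tags and DHT heights of 129 to 156 tags, a set near NOTCH2, NBPF16 and the histone genes at H3C14 on chromosome 1, and a 98.6 kb domain on chromosome Y. None of the 36 held a TCF7L2 peak, which allows a share of up to 8.33% (3 counts of 36). Heights there cannot be assigned to 1 copy of the sequence.

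The widest domain lay in the body of PPP3CA, the catalytic alpha subunit of the phosphatase calcineurin, at chr4:101994900-102189029. It spanned 194 kb, was 147 tags tall with vehicle and 154 with DHT, and held 29 TCF7L2 peaks. The gene started 79.0 kb away from it. A further domain of 55.6 kb lay 781 bp away in the same gene, and 5 domains in PPP3CA covered 298 kb in all and held 37 of the 471 TCF7L2 peaks found in broad domains. TCF7L2 peak height in these domains reached 218 tags at 2 separate positions. No other domain held more than 9 TCF7L2 peaks.

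**Figure D1:**
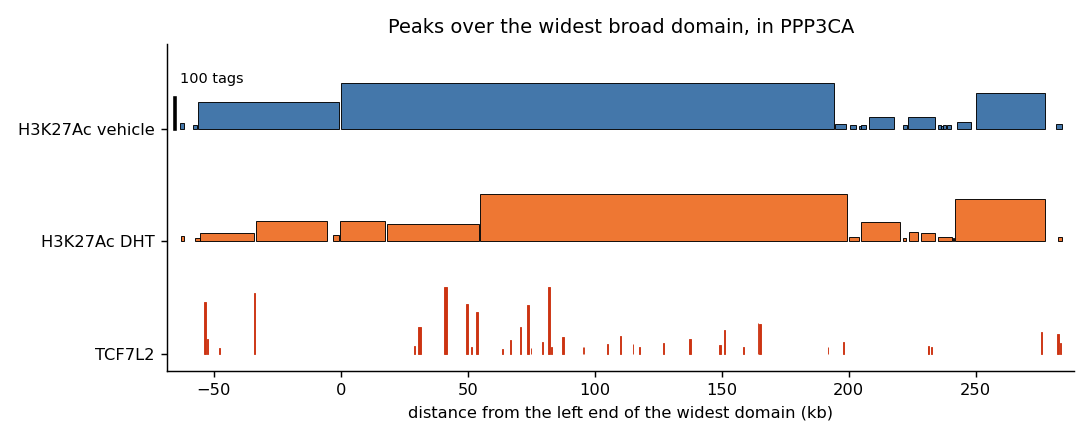
Peaks of the 3 libraries over the widest broad domain, in PPP3CA, against distance in kb from its left end, drawn with the height of each box in proportion to peak height in tags (scale bar, 100 tags). A single vehicle peak of 194 kb was matched by 3 DHT peaks, the widest of 145 kb, and carried 29 TCF7L2 peaks, with none near its left end.

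The second widest domain (167 kb) was the only one of the 12 widest that met no protein-coding gene and had sequence that could be placed. It lay at chr21:17732520-17899919 inside MIR99AHG, the long noncoding host gene of miR-99a, let-7c and miR-125b-2, was 102 tags tall with vehicle and 106 with DHT, and held no TCF7L2 peak. Then came domains over the promoters of GRB10 (147 kb, 155 tags with vehicle and 140 with DHT), an adaptor that restrains insulin receptor signalling, and PPFIA2 (142 kb, 190 and 200 tags), a synaptic scaffold of the liprin family. After the domain on chromosome Y named above, the remainder of the 12 widest lay over KDM6A (94.1 kb, 127 and 107 tags), which encodes a demethylase of H3K27, over PRKD1 (86.7 kb, 197 and 188 tags), in FBXL17 (82.1 kb, 190 and 188 tags), over GULP1 (77.7 kb, 126 and 129 tags), over PRKACB (76.5 kb, 154 and 149 tags), a catalytic subunit of protein kinase A, in KDM6A again (73.9 kb, 80 and 99 tags) and over PPFIA2 again (73.6 kb, 197 and 200 tags). Heights with vehicle and DHT were thus within 1.24-fold of each other in each of the 12.

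Broad domains also lay beside each other. When domains less than 12 kb apart were taken as a chain, 219 of the 887 fell into 92 chains and 668 stood alone. The 5 chains of the longest span were those of MIR99AHG (5 domains, 323 kb), KDM6A (4 domains, 267 kb), PPP3CA (2 domains, 250 kb), PPFIA2 (3 domains, 239 kb) and GRB10 (4 domains, 210 kb), and the chain with the most domains was that of RASSF3 (6 domains, 97.4 kb). Of the domains, 262 had a vehicle peak less than 1200 bp away, the blur length the authors set in their peak caller, and 11 had one less than 60 bp away. Joining peaks closer than 1200 bp before taking the width gave 1250 broad domains in place of 887.

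On a wider scale the domains gathered in a few stretches of the genome. A window of 2 Mb on chromosome 3 held 27 domains of 468 kb in all, and 26 of them met NAALADL2, a large gene related to FOLH1. Vehicle heights in NAALADL2 ran from 42 to 212 tags and DHT heights from 36 to 213 tags, and the median DHT to vehicle ratio was 0.997. A window on chromosome 21 held 19 domains, 18 of which met NCAM2, a neural cell adhesion gene, with a median ratio of 0.892. The STXBP5L gene on chromosome 3 held 12 domains with a median ratio of 0.887, and MIPOL1, the neighbour of FOXA1, held 10 with a median ratio of 0.942. As a share of its vehicle peaks, chromosome 21 had the most broad domains, 36 of 778 (4.63%, 95% Wilson interval 3.36 to 6.34%), and chromosome 9 the fewest, 22 of 2531 (0.869%, 0.575 to 1.31%). Of the 36 on chromosome 21, 19 lay in the NCAM2 window and 13 in a further 2 Mb window, that of MIR99AHG. Neighbouring domains are not separate observations, as the interval takes them to be, so the share describes these stretches more than the chromosome. Copy number was not measured here, and its part in these heights and widths was not tested.

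Every broad domain was also acetylated after DHT. All 887 met at least 1 peak of the DHT list, whereas 88.2% of all vehicle peaks did, a share that reached 100% already among peaks of 4 to 8 kb. A count of 0 domains without a DHT peak allows a share of up to 0.338% (3 counts of 887). DHT peaks covered a median of 99.3% of a domain, and the lowest coverage was 48.9%, in PRKACB at chr1:84683550-84694889. A single DHT peak met 725 of the domains, 2 met 127, and 3 or more met 35, with the most (6) over the 86.7 kb domain of PRKD1.

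Width was largely retained. Of the 887 domains, 771 (86.9%, 84.5 to 89.0%) met a DHT peak of 8000 bp or more, and the remainder, with a median vehicle width of 8984 bp, met DHT peaks whose widest had a median of 6239 bp. The share was 6.36% in vehicle peaks of 4 to 8 kb and 2.38% in all vehicle peaks, the domains included. Selection on width sets the domains apart from narrower peaks by this count, so the contrast is not evidence of retained width. Because the domains were chosen by vehicle width, the same comparison was made from the other side. The DHT list held 1047 peaks of 8000 bp or more among 60752 (1.72%), of which 777 (74.2%) met a broad vehicle domain and 270 met only narrower vehicle peaks, with a median of 5954 bp for the widest of these. None of the 1047 lay outside vehicle peaks. In 619 domains 1 vehicle peak met 1 DHT peak that met no other vehicle peak. The median width of these pairs was 10259 bp with vehicle and 10379 bp with DHT, with 344 wider, 250 narrower and 25 of equal width after DHT.

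Heights in the domains were close between both libraries. The median domain was 109 tags with vehicle, and the median of the tallest DHT peak over a domain was 114 tags. The ratio of DHT to vehicle height had a median of 1.03 with quartiles of 0.941 and 1.15, but the lists were not scaled to each other, and with vehicle heights replaced by the DHT heights of the same rank the median ratio was 0.988, on the other side of 1. The DHT height was above the vehicle height in 514 domains (57.9%) and below it in 343, where 58.1% of all vehicle peaks with a DHT peak had a taller and 36.4% a shorter one. After rank matching the same counts were 405 and 462. A ratio of 1.5 or more was found in 44 domains (4.96%) against 16.2% of all vehicle peaks with a DHT peak, and a ratio of 1/1.5 or less in 14 (1.58%) against 6.53%. The share at 1.5 or more decreased with each step of width, from 36.2% in peaks under 1 kb through 18.1% at 1 to 2 kb, 10.4% at 2 to 4 kb and 7.27% at 4 to 8 kb. Peak height increased over the same classes, from a median of 10 tags to 109, and its part in this order was not tested. Among 1460 peaks of at least 100 tags narrower than 8 kb, 5 had a ratio of 1.5 or more, and among 521 broad domains of at least 100 tags, 8 did.

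Several of the largest ratios came from DHT peaks that ran over more than 1 vehicle peak. At GRB10, a vehicle domain of 19 tags met a DHT peak of 91 tags that also lay over a vehicle peak of 93 tags, so the ratio was 4.79 for the domain and 0.978 for the tallest vehicle peak under the same DHT peak. The next largest ratios, in FBXL17 (49 and 188 tags) and ST3GAL1 (36 and 129 tags), became 0.989 and 0.985 on that basis, and that in the NBPF10 and NOTCH2NLA region (73 and 205 tags) became 1.22. Against the tallest vehicle peak under the same DHT peak, 33 domains (3.72%) had a ratio of 1.5 or more, compared with 14.8% of all vehicle peaks. Of the 44 domains at 1.5 or more, 24 were 1 to 1 pairs, with ratios up to 2.52.

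The largest 1 to 1 ratio lay on chromosome 15 outside any gene, with GOLGA6L6 the nearest (44 and 111 tags). At CSNK1A1, which encodes a casein kinase that phosphorylates beta-catenin, a domain of 30 tags (exact 95% Poisson interval 20.2 to 42.8) met a DHT peak of 74 tags (58.1 to 92.9), a ratio of 2.47, whereas 2 neighbouring domains of the same gene had ratios of 1.25 and 1.14. At the shared promoter region of CPSF7 and SDHAF2 the heights were 61 and 144 tags. At MBOAT2, a phospholipid acyltransferase gene, a domain of 13.4 kb over the promoter was 37 tags tall with vehicle (26.1 to 51.0) and 87 with DHT (69.7 to 107), a ratio of 2.35 with intervals that did not overlap. FOXO3, a forkhead factor gene, had 66 tags (51.0 to 84.0) with vehicle and 137 (115 to 162) with DHT. These intervals cover counting error only. The ratio at FOXO3 (2.08) was not among the 10 largest. Those 10 did include ABCC4, which encodes a transporter of organic anions (63 and 146 tags, ratio 2.32, and 1.30 against the tallest of 3 vehicle peaks), and RGMB, a co-receptor of bone morphogenetic proteins (81 and 171 tags, ratio 2.11, and 1.03 likewise).

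At the other end, the lowest ratio was in TTC6, beside FOXA1, where a domain of 68 tags met 2 DHT peaks of at most 33 tags that covered 50% of it. Of the 10 lowest, 2 lay in NCAM2 (56 and 31 tags, 68 and 38 tags), 1 in NAALADL2 (74 and 47 tags), 1 in PRKACB (36 and 20 tags), 1 in SBF2 (74 and 43 tags), 1 in CDK8 (93 and 58 tags), and 3 between genes on chromosome 3 near BCHE and ZBBX (45 and 25 tags, 95 and 54 tags, 113 and 71 tags). None of these 10 held a TCF7L2 peak, and none lay over a promoter. Of all broad domains in gene bodies 13.9% held one, and of those between genes 8.89% did. With 10 domains the count does not set them apart from these shares.

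**Figure D2:**
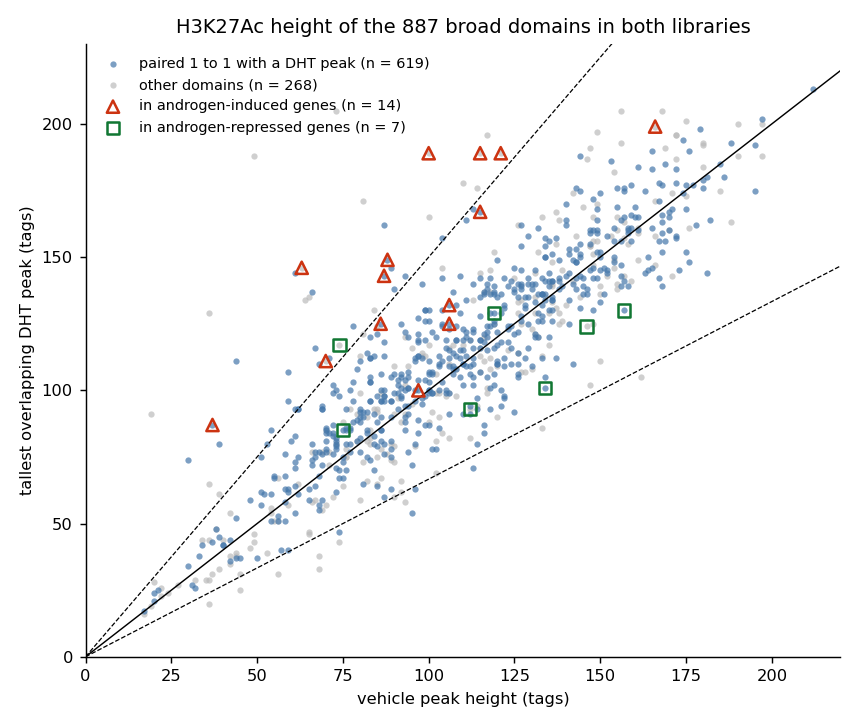
Height in tags of the tallest overlapping DHT peak (vertical axis) against vehicle height in tags (horizontal axis) for each of the 887 broad domains, with domains in androgen-induced genes as red triangles and in androgen-repressed genes as green squares. The solid line marks equal height and the dashed lines ratios of 1.5 and 1/1.5. Most points lie near the solid line, and the 14 red triangles lie above it with heights as deposited (13 of 14 after rank matching).

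Domains in known androgen targets were read against that line by list. The lists were chosen with earlier results of these data known, so their counts are a description. Androgen-induced genes, a list of 40 from textbook knowledge, met 14 domains through 9 of its genes, and in all 14 the DHT peak was taller than the vehicle peak, against 57.9% of all broad domains. After rank matching 13 of 14 were taller, against 45.7% of all, the exception being the domain over the TPD52 promoter (97 and 100 tags, rank-matched ratio 0.971). The median ratio was 1.57, and 8 of the 14 were at 1.5 or more, or 7 against the tallest vehicle peak under the same DHT peak. ZBTB16, the gene of the zinc finger repressor PLZF, held 4 of them, with vehicle heights of 70, 100, 115 and 121 tags. The last 3 met the same DHT peak of 189 tags, and the first met one of 111 tags, so the 4 are not separate observations. A further domain in TPD52 (87 and 143 tags) and a further one in ABCC4 (88 and 149 tags) were 1 to 1 pairs. In UAP1, an enzyme gene of the hexosamine pathway, the heights were 115 and 167 tags. TMPRSS2, the protease gene whose promoter drives ETS fusions in prostate cancer, had 106 tags (86.8 to 128) with vehicle and 125 (104 to 149) with DHT, intervals that overlapped. C1orf116 (166 and 199 tags) and SORD (106 and 132 tags) were also among the 9 genes.

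Androgen-repressed genes, a list of 15, met 7 domains through 6 genes with a median ratio of 0.849. UGT2B15 and UGT2B17, which encode the enzymes that glucuronidate DHT, had 157 and 130 tags and 112 and 93 tags with vehicle and DHT. BCHE, the butyrylcholinesterase gene, had 134 tags (112 to 159) and 101 (82.3 to 123). Of the 2 domains in DDC, the dopa decarboxylase gene, 1 had 146 and 124 tags and the other 74 and 117 tags. The values were 119 and 129 tags at ACKR3. Of the 7 domains, 3 were taller with DHT, as deposited and after rank matching. Of all broad domains 57.9% and 45.7% were, and 7 domains are too few to set this list apart by that count. The UGT2B genes are close copies, and reads may be shared between them. A TCF7L2 peak was held by 4 of the 14 domains of the induced list and by 0 of the 7 of the repressed list. The share over all broad domains was 28.5%, and these counts are too small to set either list apart from it.

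NEDD4L held 5 domains, of which those with the androgen response element (110 and 178 tags) and at chr18:56023950-56032529 (89 and 146 tags) had the largest ratios, and the other 3 had ratios of 0.906, 1.05 and 1.16. NCOR1, which encodes a corepressor of nuclear receptors, had 1 domain of 54 tags that met a DHT peak of 85 tags and 1 over its promoter of 61 and 83 tags.

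TCF7L2 peaks lay in more of the broad domains than of narrower peaks, but more thinly along them. At least 1 TCF7L2 peak was found in 253 of 887 domains (28.5%, 25.6 to 31.6%) against 10.2% of all vehicle peaks and 22.8% (21.6 to 24.1%) of the peaks of 4 to 8 kb. A wide peak has more room, and per 100 kb the domains held 3.64 TCF7L2 peaks (3.32 to 3.98) against 5.66 (5.36 to 5.97) in peaks of 4 to 8 kb. Density stood at 4.46 in domains of 8 to 10 kb and at 4.79 in those of 10 to 16 kb, then at 2.38 in those of 16 to 32 kb and at 2.18 (1.67 to 2.80) in those of 32 kb or more. Without the PPP3CA domain the last value was 1.23 (0.839 to 1.73), since 29 of the 61 TCF7L2 peaks in that class lay in it. Of the 44 domains of 32 kb or more, 31 held none, and of the 15 of 64 kb or more, 10 held none.

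**Figure D3:**
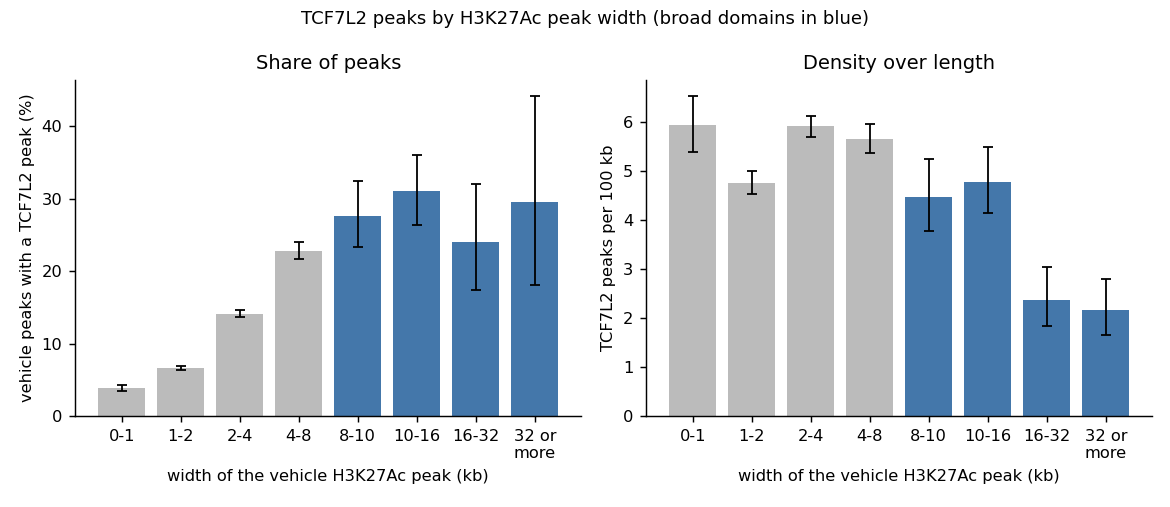
Share of vehicle H3K27Ac peaks with a TCF7L2 peak in percent (left) and TCF7L2 peaks per 100 kb (right) by width class in kb, with broad domains in blue, narrower peaks in grey and bars for 95% Wilson or exact Poisson intervals. The share reached 27.6% at 8 to 10 kb and 29.5% at 32 kb or more, while density stood at 5.66 per 100 kb at 4 to 8 kb and 2.18 at 32 kb or more.

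Most domains with TCF7L2 had 1 peak (154 domains), and 44 had 2, 35 had 3 and 20 had 4 or more. After PPP3CA the domain with the most (9) spanned 26.1 kb over MALAT1, an abundant nuclear long noncoding RNA, at chr11:65252730-65278859 (149 and 168 tags). Domains with 6 lay over or in PRKACB, IRF2BP2, BCL9L, RASSF3, TFPI and MYC. BCL9L encodes a coactivator that links beta-catenin to transcription, and MYC is a classical target of TCF factors. Domains with 5 lay over GULP1 and over ADAM9 and TM2D2. The MYC domain (12.1 kb, 101 and 107 tags) held a TCF7L2 peak of 224 tags, and that of YAP1, the coactivator of the Hippo pathway (14.0 kb, 105 and 100 tags), held the one of 225 tags. The VMP1 domain (13.7 kb, 152 and 158 tags) contained MIR21 as well as a TCF7L2 peak of 202 tags.

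Promoters and base composition went with TCF7L2 in these domains. A domain over a promoter, 1000 bp before to 100 bp after a start site, held a TCF7L2 peak in 195 of 405 cases (48.1%, 43.3 to 53.0%), a domain in a gene body in 42 of 302 (13.9%, 10.5 to 18.3%), and a domain between genes in 16 of 180 (8.89%, 5.55 to 14.0%). In peaks of 4 to 8 kb these shares were 38.3%, 13.2% and 9.67%. Promoter domains had a median GC content of 45.9%, gene body domains of 37.8% and domains between genes of 36.6%. Among the 400 domains under 40% GC, 10.3% held a TCF7L2 peak (7.65 to 13.6%), among the 326 of 40 to 50% GC 39.3% did (34.1 to 44.7%), and among the 161 of 50% GC or more 52.2% did (44.5 to 59.7%). The DHT to vehicle ratio had a median of 0.984 in the first of these classes, 1.08 in the next and 1.07 in the last. In peaks of 4 to 8 kb the same order of GC classes gave TCF7L2 shares of 6.92%, 26.8% and 36.5% and median ratios of 0.943, 1.06 and 1.09. Recovery of DNA in library preparation can move with GC content, and its part in either relation was not tested.

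**Figure D4:**
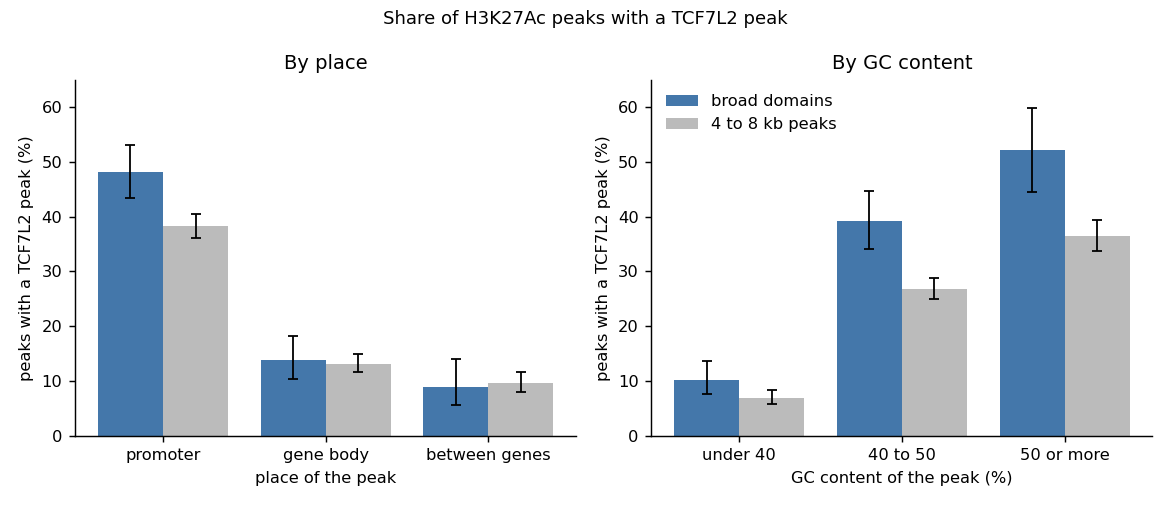
Share of broad domains (blue) and of vehicle peaks of 4 to 8 kb (grey) with a TCF7L2 peak, in percent with 95% Wilson intervals, by place (left) and by GC content in percent (right). In the domains the share was 48.1% over promoters and 8.89% between genes, and 10.3% under 40% GC and 52.2% at 50% GC or more.

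The TCF7L2 heptamers were found under TCF7L2 peaks inside and outside the domains. Within 201 bp around the centre, 147 of 471 TCF7L2 peaks in broad domains (31.2%, 27.2 to 35.5%) held 1 of the same heptamers on either strand, against 23.8% (21.6 to 26.1%) of those in peaks of 4 to 8 kb, 27.6% of those in narrower peaks, 38.8% (38.0 to 39.7%) of those outside vehicle H3K27Ac peaks and 35.0% of all TCF7L2 peaks. The share was 39.2% (30.3 to 48.9%) in domains in gene bodies and 29.6% (25.0 to 34.7%) in domains over promoters. The heptamers are common, being in 36.2% of all 500 bp pieces from broad domains and in 34.9% of those from all vehicle peaks. Those pieces are longer than the windows, and no rate was computed for 201 bp windows away from TCF7L2 peaks. The shares under TCF7L2 peaks therefore do not show an excess of the heptamers. The median TCF7L2 height was 30 tags in domains and 31 over all peaks. In pieces of 500 bp, FOXA letters (TGTTTAC) were in 9.09% of pieces from broad domains and in 11.2% of those from all vehicle peaks. On either strand likewise, the shares were 0.491% and 0.843% for ETS letters (CCGGAAGT) and 6.72% and 7.18% for GATA letters (AGATAAG). For AGAACA alone they were 32.9% in both. In peaks of 4 to 8 kb the shares were 9.56% for FOXA, 0.787% for ETS, 6.78% for GATA and 31.8% for AGAACA. The FOXA and GATA shares of broad domains were thus close to those of peaks of 4 to 8 kb. CpG island sequence had at least 55% GC and an observed to expected CpG ratio of at least 0.65. It was in 4.58% of pieces from broad domains, 7.23% from all vehicle peaks and 8.96% from peaks of 4 to 8 kb. The mean GC content was 41.6% in pieces from broad domains and 43.4% in those from all vehicle peaks.

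Promoters were common among the domains. A protein-coding promoter lay in 405 of them (45.7%), against 19% of all vehicle peaks and 41.4% of those of 4 to 8 kb, 302 lay in gene bodies and 180 between genes. A wide peak is more likely to meet a promoter for its length alone. Of the 405, 309 held the promoter of 1 gene, 76 those of 2 and 20 those of 3 or more. In all, 505 of 19794 protein-coding genes (2.55%) had the promoter in a broad domain, and 694 (3.51%) met one with promoter or body. For 186 domains the nearest protein-coding start was over 100 kb away, and for 43 it was over 500 kb away.

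Of 19 luminal prostate factors, 7 (36.8%, 19.1 to 59.0%) had the promoter in a broad domain, against 2.55% of all protein-coding genes. The 2 sets also differed in promoters under any vehicle peak, 89.5% of this list against 54.4% of all protein-coding genes. For the luminal markers and lipid synthesis genes below, that share was 78.3% and 95%. The lists here and below were chosen with earlier results of these data known. Their shares are therefore a description, and the intervals cover counting error only. FOXA1, the pioneer factor that opens chromatin, lay in a domain of 45.4 kb (155 tags with vehicle and 160 with DHT). EHF, an epithelial ETS factor, lay in one of 37.7 kb (172 and 196 tags), HOXB13, the homeobox factor of posterior tissues and prostate, in one of 21.4 kb (149 and 152 tags), and GATA2 in one of 16.9 kb (98 and 113 tags). XBP1, a factor of the secretory stress response (8.91 kb, 83 and 85 tags), and GRHL2, an epithelial grainyhead factor (8.58 kb, 132 and 152 tags), were also among the 7. All 7 were taller with DHT as deposited, although the rank-matched ratio was under 1 at HOXB13 (0.993) and XBP1 (0.966). Across the 10 domains that met these genes, 9 were taller as deposited and 7 after rank matching, where 57.9% and 45.7% of all broad domains were. The 10 are not separate observations. EHF domains of 172 and 117 tags met the same DHT peak of 196 tags. GRHL2 domains of 132 and 119 tags met the same DHT peak of 152 tags.

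Of the luminal markers, 7 of 23 (30.4%, 15.6 to 50.9%) had the promoter in a domain. FOLH1, which encodes prostate-specific membrane antigen, lay in the widest of these domains, 72.9 kb with 186 tags and 180 with DHT. STEAP2 (46.9 kb, 179 and 198 tags) and STEAP1 (17.0 kb, 163 and 175 tags) are neighbouring metalloreductase genes, CDH1 (13.6 kb, 157 and 163 tags) encodes E-cadherin, and CLDN4 (8.94 kb, 120 and 110 tags) and CLDN7 (9.42 kb, 99 and 113 tags) encode tight junction proteins. TMPRSS2 (11.4 kb) was the last. The kallikrein gene KLK3, which encodes prostate-specific antigen, had no vehicle peak at its promoter at all, and those of KLK2, KRT8 and KRT18 lay in narrower vehicle peaks. Few markers of other cell types had the promoter in a domain, as was so for protein-coding genes at large (2.55%). None of 16 basal epithelium, 17 stroma, 10 endothelium, 14 neuroendocrine and 20 other tissue markers did, and of 16 leukocyte markers only CD68 did (9.45 kb, 69 and 72 tags), counts too small to set these lists apart from that share.

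Metabolic genes were also found in the domains. Of 20 lipid synthesis genes, 7 (35.0%, 18.1 to 56.7%) had the promoter in a domain. FASN, the fatty acid synthase gene, lay in one of 17.5 kb (125 and 138 tags), FDFT1, of the committed step to sterols, in one of 12.4 kb (107 and 137 tags), ACACA, which makes malonyl-CoA, in one of 10.5 kb (76 and 93 tags) and SREBF1, the regulator of this pathway, in one of 9.84 kb (93 and 120 tags). The desaturase genes FADS1 and FADS2 shared one of 9.90 kb (94 and 101 tags). Of the 11 domains that met genes of this list, 10 were taller with DHT, or 9 after rank matching, against 57.9% and 45.7% of all broad domains. The exception before matching was SCD, whose body met a domain of 49 tags with vehicle and 43 with DHT. The 11 domains are not separate observations, since SREBF1 and ACACA each met more than 1 of them. The SREBF1 promoter domain and a neighbouring, taller SREBF1 domain met the same DHT peak of 120 tags. Against the tallest vehicle peak under that DHT peak, the ratio of the promoter domain was 1.03. Among polyamine and secretory genes 3 of 15 were in a domain, and they included SLC30A4, a zinc transporter gene (48.0 kb, 175 and 177 tags), and AMD1 of polyamine synthesis (33.9 kb, 115 and 135 tags).

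In the remaining lists the shares were lower or rested on few genes. The androgen lists had 5 of 40 induced genes (12.5%, 5.46 to 26.1%) and 4 of 15 repressed genes (26.7%, 10.9 to 52.0%) with the promoter in a domain. Androgen response regulators had 4 of 20, among them NCOR1, FKBP4 (54 and 51 tags) and the chromatin remodeller gene ARID1A (133 and 132 tags). Transcription regulators at prostate cancer risk loci had 5 of 30, among them CTBP2 (82 and 92 tags), HOXB13, MYC and GATA2, and 4 of their 5 domains held a TCF7L2 peak, where 48.1% of all promoter domains did. ETS factors had 4 of 27, with ELF1 (70 and 84 tags), ELF2 (91 and 99 tags) and ELK4 (100 and 117 tags) beside EHF. Growth factor receptors and adaptors had 2 of 19, ERBB2 (145 and 136 tags) and GRB10, stress and AP-1 genes 2 of 19, ATF4 (70 and 85 tags) and DUSP1 (84 and 83 tags), and Wnt targets and feedback genes 1 of 23, MYC. Housekeeping genes had 4 of 20 (20.0%, 8.07 to 41.6%), GAPDH (106 and 99 tags), EEF1A1 (86 and 96 tags), RPLP0 (90 and 106 tags) and RPL13A (82 and 90 tags), so a broad domain was not limited to genes of prostate identity.

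**Figure D5:**
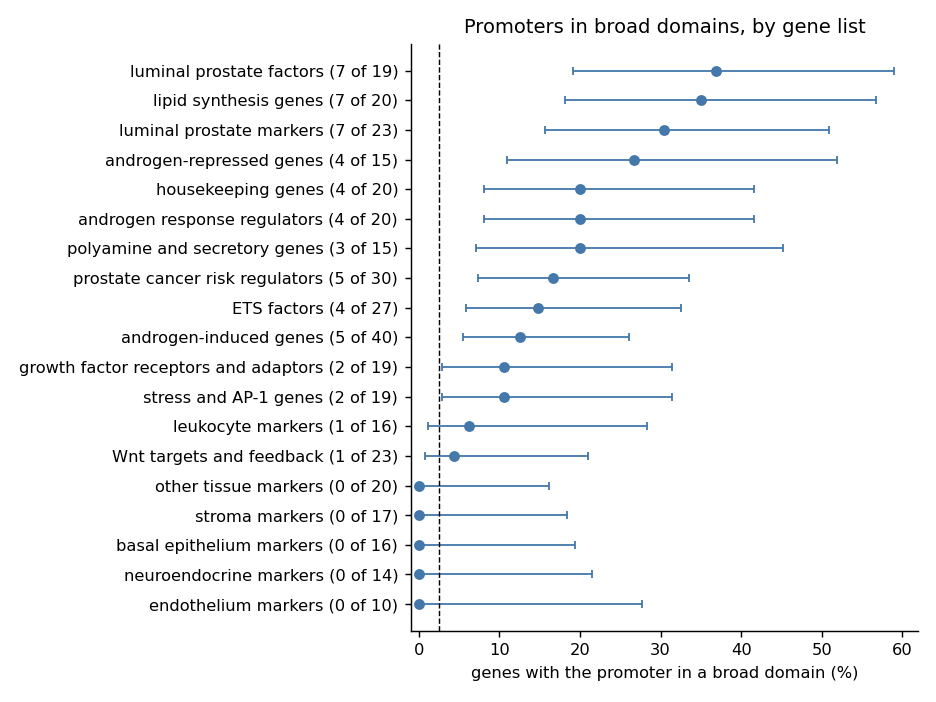
Percent of the genes of each list with the promoter in a broad domain, as points with 95% Wilson intervals and counts beside the names, and the share over all protein-coding genes (2.55%) as a dashed line. Luminal prostate factors (36.8%), lipid synthesis genes (35.0%) and luminal prostate markers (30.4%) have the highest shares, and 5 lists of markers of other tissues are at 0. The lists were chosen with earlier results of these data known.

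MicroRNA genes were present as well. Of 3040 annotated miRNA genes, 40 (1.32%) lay in broad domains, where 272 lay in any vehicle peak, and 32 of the 40 matched a RefSeq entry. Mature sequences are shown for those with a known part in epithelial or prostate cells, chosen after the domains were known, with the seed (bases 2 to 8) in capitals. A miRNA pairs with its target RNAs mainly through the seed. The chromosome 12 pair of the miR-200 family, which represses ZEB factors in epithelial cells, lay in a domain of 12.7 kb over PHB2 and PTPN6 (135 tags with vehicle and 144 with DHT, 2 TCF7L2 peaks).
hsa-miR-200c-3p: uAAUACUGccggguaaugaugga
hsa-miR-141-3p: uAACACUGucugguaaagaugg
The let-7 members fell into 2 places. let-7c lay with miR-99a in a domain of 15.6 kb in MIR99AHG (38 and 48 tags) and miR-125b in a further one of 52.0 kb (71 and 77 tags), whereas let-7a and let-7b lay in a domain of 72.0 kb on chromosome 22 (172 and 187 tags). The 3 let-7 sequences share the seed GAGGUAG.
hsa-let-7a-5p: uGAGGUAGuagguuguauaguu
hsa-let-7b-5p: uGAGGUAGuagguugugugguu
hsa-let-7c-5p: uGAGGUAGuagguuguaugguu
hsa-miR-99a-5p: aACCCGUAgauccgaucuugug
hsa-miR-125b-5p: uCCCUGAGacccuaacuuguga
miR-15b and miR-16, which share the seed AGCAGCA, lay in a domain of 8.34 kb over the SMC4 promoter (82 and 84 tags). miR-21 lay in the VMP1 domain, and miR-33b in a domain of 9.03 kb at SREBF1, whose product acts in the same lipid pathway that miR-33 is known to regulate.
hsa-miR-15b-5p: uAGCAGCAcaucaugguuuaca
hsa-miR-16-5p: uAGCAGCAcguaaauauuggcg
hsa-miR-21-5p: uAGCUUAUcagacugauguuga
hsa-miR-33b-5p: gUGCAUUGcuguugcauugc
In each of the domains named here the DHT peak was taller than the vehicle peak as deposited, by a ratio of 1.02 to 1.26, but with ranks matched those of miR-15b (0.966) and miR-33b (0.984) fell on the other side of 1. The median ratio over all domains was 1.03. Whether the mature miRNAs were made was not measured.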

How the data were processed

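The deposited files list peaks with start, end and a signal. This signal is the pileup height in tags as the authors' caller wrote it, and no scaling to depth is stated in the sources used here. Read numbers per library were not analysed here. Per the labels and the study's methods, the authors aligned reads to hg19 and called peaks with Sole-search in each library separately, with a blur length of 1200 for H3K27Ac. The methods name Bowtie 2 for H3K27Ac and the Illumina pipeline for TCF7L2, whereas the submitters' processing notes name CASAVA 1.8.2, Bowtie2 and BWA. Positions were used as deposited.

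Width was end minus start. Peaks of different lists were paired where they shared 1 bp or more. The height ratio set the tallest overlapping DHT peak against the domain. Promoters ran from 1000 bp before to 100 bp after starts of protein-coding transcripts in GENCODE release 44 on GRCh37. Of 351 symbols in 19 lists, 348 were matched, and PCA3, PECAM1 and TRGC1 were not. Some list members are counted but not reported by name here. Sequences came from GRCh37 and, for miRNAs, from RefSeq. Pieces were aligned back with minimap2 and taken as placed at a mapping quality of 30 or more. Intervals at 95% are Wilson for shares and exact Poisson for counts, and cover counting error only. For a count of 0 the limit is 3 counts of the total. The members and lists were chosen with earlier results of these data known. The genes named were those of the 12 widest domains, the 10 largest and 10 smallest ratios, the domains with most or tallest TCF7L2 peaks, those at the width limit, the chains of longest span and up to 10 per list. Others were chosen after their values were seen. Code was tested on simulated data. Alternatives covered width limit, overlap, height, fold, promoter window, TCF7L2 list length and joining of peaks. The work used Python 3.11.15, pandas 2.3.3, bedtools 2.31.1 and minimap2 2.31.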

Additional observations from a re-analysis of the deposited data

How the results depend on the processing

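Results were recomputed under the alternatives that bear on them, 80 values in all, and the base composition was not recomputed. Of the 80, 43 were within 1.5 times the reported count or inside the 95% interval of the reported share, density or median. All domains met a DHT peak under each alternative tried. A width limit of 6000 bp gave 1893 domains, of which 48.7% met a broad DHT peak, 111 had a ratio of 1.5 or more and 50 a ratio of 1/1.5 or less, with 4.33 TCF7L2 peaks per 100 kb, 1081 genes and 9 androgen-induced genes. A limit of 12000 bp gave 326 domains, 94.8%, 11 and 4 domains past the ratios, 3.07 per 100 kb, 187 genes and 2 androgen-induced genes. A limit of 16000 bp gave 173 domains, 99.4%, 1 and 3 domains past the ratios, a median ratio of 1.02, a TCF7L2 share of 25.4%, 2.28 per 100 kb, 91 genes and 0 androgen-induced genes. The limit for a broad DHT peak stayed at 8000 bp throughout. The shares of domains that met one therefore set unlike vehicle and DHT widths beside each other, and they do not measure how far width was retained. Counts differ here with the number of domains taken, and for the TCF7L2 share, the densities and the ratio the cause was not tested. Matching heights by rank put the median ratio at 0.988, on the other side of 1, with 28 domains at 1.5 or more and 23 at 1/1.5 or less. Taking the DHT peak with most shared bases gave 25 at 1/1.5 or less. A fold of 1.2 gave 154 and 80 domains and a fold of 2 gave 14 and 1. With the 15000 tallest TCF7L2 peaks the share was 22.7% and the density 2.53 per 100 kb. Joining peaks less than 1200 bp apart gave 9 androgen-induced genes. Chosen after seeing the data, 1 to 1 pairs alone gave 24 and 4 domains and a median ratio of 1.05, and leaving out the 36 domains that map back poorly moved none of 8 results. The promoter window moved none of 4. Only 1 library per condition limits every comparison, and read depth was not used here to scale heights. No paired analysis was possible because each condition had 1 library.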
